A study of Mus musculus with 9 samples.

Results

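The transcripts described here belong to 6 genes that are tied by name or known function to the tumour suppressor p53 or to the cell cycle: Trp53cor1, Lockd, Norad, Oip5os1, Cdt1 and Trp53inp1. They were picked by name, and all 6 were found among the 10706 gene names of the table, in which transcripts of one name were summed. The samples are pancreatic islets, the endocrine cell clusters that make insulin, isolated from female mice that were virgin (5 libraries) or pregnant (4 libraries labelled GD14.5, a gestational day), with no strain, age or agent in the labels. The RNA was bulk RNA enriched for polyadenylated transcripts, and levels are in FPKM, a count of fragments scaled to transcript length and library size. Whether the libraries are separate animals is not stated, so a p-value here reflects only how these 9 libraries vary, which may be technical. Of 41 defining markers of islet, exocrine, vascular, immune, stromal and cycling cells, 2 had a line in the table, with 0.01 FPKM as the highest value, so the labelled tissue was not checked by markers and messenger RNA of most coding genes is not analysed here.

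Islet beta cells divide rarely in adult mice and more often during pregnancy, under lactogenic hormones, so genes that license or restrain division are of interest in this tissue. The p53 protein is a transcription factor that is switched on by DNA damage and other stress and induces genes of growth arrest and cell death, the best known being Cdkn1a, which encodes the inhibitor p21. Several long noncoding RNAs act around these events: some sit beside genes of cell cycle inhibitors, and others bind RNA-binding proteins or microRNAs.

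Trp53cor1, also called lincRNA-p21, is a p53-induced noncoding RNA gene on the minus strand of chromosome 17 (29057474 to 29079126, RefSeq on GRCm38.p6), 11.9 kb from Cdkn1a. Trp53inp1 encodes a p53-induced nuclear protein that promotes arrest, cell death and autophagy (chromosome 4, 11156441 to 11174379, plus strand). Lockd is a noncoding RNA gene 3.57 kb from Cdkn1b, the gene of the inhibitor p27, on chromosome 6 (134929092 to 134951718, plus strand). Cdt1 encodes the factor that loads the MCM helicase onto replication origins in G1 phase (chromosome 8, 122568015 to 122573130, plus strand). Norad, a noncoding RNA induced by DNA damage, binds the Pumilio proteins and is needed for a stable genome (chromosome 2, 156388063 to 156392979, minus strand). Oip5os1, also called Cyrano, is a noncoding RNA that directs the destruction of the microRNA miR-7 (chromosome 2, 119594296 to 119600746, plus strand).

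The sequence by which Norad is best known is its series of Pumilio sites. They were searched as TGTANATA on the transcript strand of the GENCODE transcripts of the same assembly, and Norad held 11 in its 4915-base transcript, or 2.24 per kb. Of 33554 noncoding transcripts searched in the same way, 10.2% held at least 1 site. The only transcripts with more were Kcnq1ot1 and Gm37985, with 18 each over 93092 and 74456 bases. Among the 12087 noncoding transcripts of at least 1000 bases, 12, Norad included, were at least as dense in sites, or 0.0993%. The other members had at most 1 site in any transcript, except Trp53inp1 with 4. The sites shown were picked to show 3 different letters at the open position, with the motif in capitals and positions counted from the transcript's 5′ end.
Norad site at 1147 (chr2:156391815-156391844, minus strand): agtaaacatgcTGTAAATAcctttttgtta
Norad site at 1829 (chr2:156391133-156391162, minus strand): tgtgtgtatacTGTATATAatggacaaata
Norad site at 3526 (chr2:156389436-156389465, minus strand): cagtgagaaagTGTACATAacggattggta
A match to these letters is a description of the sequence and not a measured binding site.

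**Figure D1:**
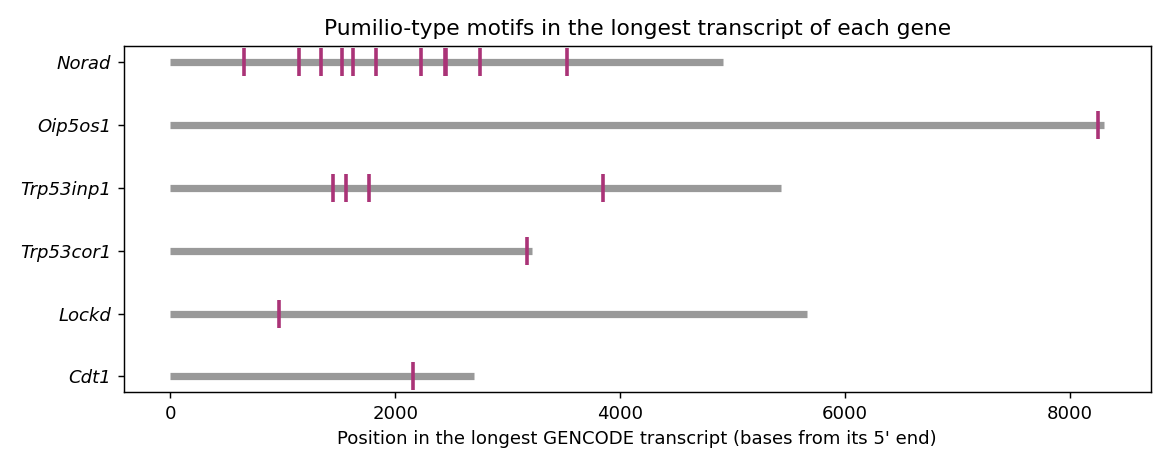
Positions of the motif TGTANATA (vertical marks) along the longest GENCODE transcript of each gene (grey bars, in bases from the 5′ end). Norad carries 11 motifs in 4915 bases, of which those at 2442 and 2451 nearly coincide, and Trp53inp1 carries 4 in 5432.

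The counterpart in Oip5os1 is its miR-7 site, shown because it is the sequence through which this RNA is known to act. In the mature miR-7 sequences of RefSeq the seed, bases 2 to 8, is in capitals. In the site the capitals mark the bases that pair with that seed.
mmu-miR-7a-5p: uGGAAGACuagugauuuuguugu
mmu-miR-7b-5p: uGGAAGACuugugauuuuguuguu
Oip5os1 miR-7 site (chr2:119602137-119602161, plus strand): acaacaaaatcaccaatGTCTTCCa
Of the 23 bases of miR-7a-5p, 21 pair with this site, 8 at the seed end and 13 at the other end, with 4 unpaired bases of the site between them. A further match to the seed in the same exon, at chr2:119599961-119599971, gave 11 pairs, and Norad held 2 matches to the seed, with 11 and 8 pairs. The level of miR-7 itself is not analysed here. The 21-pair site lies in exon 3 of the 8300-base GENCODE transcript, 1391 bases past the end of the RefSeq gene, and the 1381-base GENCODE transcript does not hold it. The deposited lines name no transcript, so which of these they stand for is unknown.

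Of the 6 genes, 3 had a start region in the RefSeq promoter table for GRCm38.p6, Cdt1, Lockd and Oip5os1, and each is shown from 250 bases before to 50 bases after the start. They are given because Cdt1 and Lockd had estimates above 0 at GD14.5 on the values as deposited, as described below, with Oip5os1 beside them. Trp53cor1, which had no start region there, was also above 0 in some other fits. Whether a motif in these regions bears on any level was not tested. Capitals mark letters of the E2F motif, searched on both strands in 4 spellings, the first being TTCCCGC, the next being TTCGCGC, another being TTGCCGC and the last being TTGGCGC. E2F factors drive genes of the G1/S transition.
Cdt1 (chr8:122567765-122568064): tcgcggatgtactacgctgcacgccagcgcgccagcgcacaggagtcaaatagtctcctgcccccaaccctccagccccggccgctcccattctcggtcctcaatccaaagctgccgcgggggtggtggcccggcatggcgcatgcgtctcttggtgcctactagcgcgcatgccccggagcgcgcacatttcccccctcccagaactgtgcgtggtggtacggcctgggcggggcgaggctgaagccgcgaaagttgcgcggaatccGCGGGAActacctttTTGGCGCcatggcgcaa
Lockd (chr6:134928842-134929141): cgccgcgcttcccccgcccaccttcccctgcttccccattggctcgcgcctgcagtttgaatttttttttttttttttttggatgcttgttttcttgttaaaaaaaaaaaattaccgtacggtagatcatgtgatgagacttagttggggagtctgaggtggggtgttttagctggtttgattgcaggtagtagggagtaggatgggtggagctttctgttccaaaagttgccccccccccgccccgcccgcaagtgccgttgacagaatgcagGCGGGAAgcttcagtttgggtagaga
Oip5os1 (chr2:119594046-119594345): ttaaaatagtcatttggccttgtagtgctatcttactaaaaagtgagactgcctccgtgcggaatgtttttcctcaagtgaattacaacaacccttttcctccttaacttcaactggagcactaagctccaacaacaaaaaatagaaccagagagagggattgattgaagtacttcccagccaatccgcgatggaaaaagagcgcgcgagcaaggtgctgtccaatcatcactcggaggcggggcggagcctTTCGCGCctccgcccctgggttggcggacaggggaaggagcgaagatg
Cdt1 held 2 E2F matches, and Lockd and Oip5os1 held 1 each, all within the 50 bases after the start. Over all 32851 start regions of that length, 9.57% held a match. The motifs were chosen after these 3 sequences had been seen, so the shares over all start regions are a description and no test of enrichment. CCAAT, searched on both strands, was found 2 times in Oip5os1, 1 time in Lockd and 0 times in Cdt1, against 37.4% of start regions with at least 1. The cell cycle homology motif TTTGAA was found 1 time, in Lockd, and was in 17.9% of start regions. The p53 half-site consensus was found in none of the 3 windows and in 8.36% of all.

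Of the 6, Norad was the most abundant at a mean of 69.3 FPKM over the 9 libraries, the rank of 9 among the 2377 loci with a mean of at least 0.5 FPKM. As messenger RNA of most coding genes is not analysed here, this is no rank among all islet transcripts. Norad was followed by Oip5os1 at 10.1, Trp53inp1 at 3.06, Trp53cor1 at 2.02, Lockd at 1.07 and Cdt1 at 0.529 FPKM. Norad was above Oip5os1 in 9 of 9 libraries, by 5.14 to 8.13 times, and Oip5os1 was above Trp53inp1 in 9 of 9, by 1.62 to 6.57 times. The order of Trp53inp1 and Trp53cor1 held in 7 of 9 libraries, that of Trp53cor1 and Lockd in 5 of 9, and that of Lockd and Cdt1 in 8 of 9. Those last 3 steps in the order were smaller than the variation among libraries. Cdt1 was near the lower limit for testing, with 3.49% of tested loci below it. Depth is unknown for these values, and how many reads lie behind a value under 1 FPKM cannot be given.

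**Figure D2:**
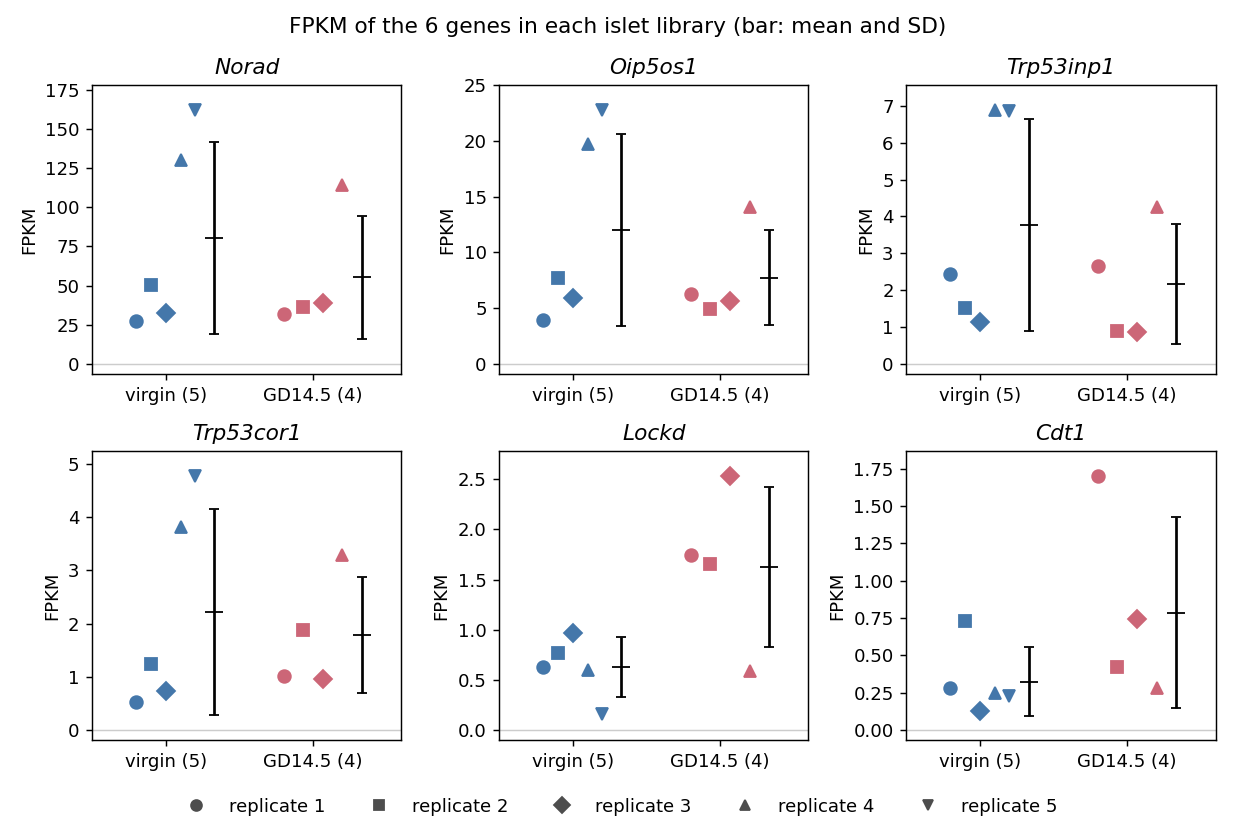
FPKM of each gene (vertical axes, FPKM, from 0) in the 5 virgin (blue) and 4 GD14.5 libraries (red), with symbols for the replicate number and a bar for mean and SD. Virgin 4, virgin 5 and GD14.5 replicate 4 lie highest for Norad, Oip5os1, Trp53inp1 and Trp53cor1, and none of these 3 is high for Lockd or Cdt1.

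Summed over all names, the libraries held from 5415 to 20531 FPKM, and 3 of them, virgin 4, virgin 5 and GD14.5 replicate 4, held more than the other 6. This bears on every level given below, since both groups contain such a library. Norad averaged 135 FPKM in those 3 libraries and 36.3 in the other 6, a ratio of 3.73, where the median ratio over loci was 2.49 and the central 80% of loci ran from 1.47 to 3.87. Trp53cor1 (3.74), Trp53inp1 (3.78) and Oip5os1 (3.28) had ratios of the same size. Lockd and Cdt1 went the other way, with ratios of 0.326 and 0.380, and 0.631% and 0.883% of loci had a lower ratio. Whether depth, RNA quality or the makeup of the islets differs between these 3 libraries and the rest was not tested.

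Lockd had the highest estimate of the 6 on the log2(FPKM + 0.5) scale. Relative to the library median the ratio of group means was 2.96 for Lockd and 3.24 for Cdt1, against 2.60 and 2.42 in FPKM. Lockd measured 0.63, 0.77, 0.97, 0.60 and 0.16 FPKM in virgin replicates 1 to 5 and 1.74, 1.65, 2.53 and 0.59 FPKM in GD14.5 replicates 1 to 4. GD14.5 replicates 1, 2 and 3 were above all virgin libraries, while GD14.5 replicate 4 was below 4 of the 5, so the groups overlapped. The means were 0.626 ± 0.299 FPKM in virgin (SD, n = 5), against 1.63 ± 0.797 at GD14.5 (SD, n = 4), 2.60 times as high. The log2(FPKM + 0.5) scale understates the change of low values. It holds for every log2 difference that follows, save in fits that add another value than 0.5. On this scale the difference was 0.87 ± 0.37 (SE, 95% interval 0.11 to 1.64), with an unadjusted limma p of 0.0265. It did not pass after Benjamini-Hochberg adjustment over the 2377 loci (limma adjusted p = 0.817), and the exact permutation p was 0.0714, two-sided over the 126 possible assignments of the group labels. In bulk samples a change in the share of the cells that hold a transcript and a change in its amount per cell cannot be told apart. The estimate was 0.67 without GD14.5 replicate 3, 0.69 without virgin replicate 5 and 1.17 without GD14.5 replicate 4.

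Cdt1 had the next highest estimate. Its single transcript measured 0.28, 0.73, 0.13, 0.25 and 0.23 FPKM in virgin replicates 1 to 5 and 1.70, 0.42, 0.74 and 0.28 FPKM in GD14.5 replicates 1 to 4. GD14.5 replicate 1 stood alone at the top, GD14.5 replicate 3 was just above virgin replicate 2, and the other GD14.5 libraries lay within the virgin range. The means were 0.324 ± 0.234 (SD, n = 5) and 0.785 ± 0.640 FPKM (SD, n = 4). Its log2 difference of 0.56 ± 0.34 (SE; 95% interval −0.15 to 1.27) did not pass the threshold (limma adjusted p = 0.817; exact permutation p = 0.143). Without GD14.5 replicate 1 the mean of Cdt1 fell below the minimum for testing. GENCODE lists 5 transcripts of Cdt1, of which 4 are classed as not coding, and the line cannot be taken as the level of its messenger RNA.

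Norad measured 27.43, 50.56, 32.28, 129.88 and 161.79 FPKM in virgin replicates 1 to 5 and 32.10, 36.56, 38.71 and 114.18 FPKM in GD14.5 replicates 1 to 4. Virgin replicates 4 and 5 and GD14.5 replicate 4 lay far above the rest of their groups, and the groups overlapped over nearly the whole range. The log2 difference was −0.38 ± 0.65 (SE; 95% interval −1.73 to 0.96; limma adjusted p = 0.825), beside a median of −0.30 over all loci. Leaving out 1 library at a time moved the estimate of Norad between −0.80 (without GD14.5 replicate 4) and −0.04 (without virgin replicate 5), and the median of all loci between −0.48 and −0.13 for the same libraries.

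Oip5os1 followed the same outline, at 3.96, 7.70, 5.91, 19.70 and 22.73 FPKM in virgin replicates 1 to 5 and 6.24, 4.95, 5.65 and 14.05 FPKM in GD14.5 replicates 1 to 4. Its log2 difference was −0.43 ± 0.57 (SE; 95% interval −1.61 to 0.75; limma adjusted p = 0.817). The GD14.5 values all lay within the virgin range.

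The p53-induced genes, Trp53inp1 and Trp53cor1, had group differences smaller than their variation among libraries. Trp53inp1 measured 2.45, 1.51, 1.14, 6.88 and 6.85 FPKM in virgin replicates 1 to 5 and 2.66, 0.90, 0.86 and 4.27 FPKM in GD14.5 replicates 1 to 4. GD14.5 replicates 2 and 3 were below all virgin libraries and the other 2 were within their range. Its log2 difference was −0.60 ± 0.52 (SE; 95% interval −1.68 to 0.48; limma adjusted p = 0.817). As for Cdt1, the single line is of unknown identity, and GENCODE classes 3 of the 4 transcripts of Trp53inp1 as not coding.

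Trp53cor1 measured 0.52, 1.24, 0.74, 3.81 and 4.77 FPKM in virgin replicates 1 to 5 and 1.02, 1.88, 0.95 and 3.28 FPKM in GD14.5 replicates 1 to 4. The GD14.5 libraries all lay within the virgin range. The log2 difference was −0.05 ± 0.49 (SE; 95% interval −1.06 to 0.96; limma adjusted p = 0.957), and its sign turned with the scaling, to 0.24 with equal library medians. A line that marks a copy of Trp53cor1 on another sequence of the assembly, at 0 to 0.08 FPKM, was left out of the sum.

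In all, limma called 0 of the 6 members as deposited, where 0.168% of loci were called higher and 0% lower. Before adjustment 1 member, Lockd, had a p under 0.05, as had 1.09% of loci above 0 and 1.43% below, and the exact permutation p of the 6 ran from 0.0714 to 0.944, with 0.00794 as the smallest it can give. The 95% intervals reached above 1 for Lockd and Cdt1 and below −1 for Norad, Oip5os1, Trp53inp1 and Trp53cor1. None of the members had groups that did not overlap, as against 0.421% of loci with all GD14.5 libraries above and 0.168% with all below.

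Because the library sums spread several-fold, each member was also set against the median FPKM of the tested loci in its own library. Norad then ran from 36.3 to 68.0 times the library median, a 1.87-fold range in place of 5.90-fold, and averaged 49.2 ± 11.8 in virgin (SD, n = 5), against 48.8 ± 12.9 at GD14.5 (SD, n = 4). Oip5os1 ran from 5.69 to 9.0 times the median, with means of 7.49 ± 1.36 and 7.11 ± 1.24. Lockd spread more on this scale, from 0.0630 times the median in virgin replicate 5 to 2.91 times in GD14.5 replicate 3. Its ratios averaged 0.621 ± 0.457 in virgin and 1.84 ± 1.08 at GD14.5, and GD14.5 replicates 1 to 3 were again above all virgin libraries, with GD14.5 replicate 4 at 0.351. Cdt1 averaged 0.282 ± 0.232 and 0.913 ± 0.872 times the median, with GD14.5 replicates 1 and 3, at 2.15 and 0.851, above all virgin libraries. Trp53cor1 averaged 1.26 ± 0.503 and 1.62 ± 0.513 times the median, with GD14.5 replicates 2 and 4, at 2.16 and 1.95, above all virgin libraries. Trp53inp1 averaged 2.49 ± 1.23 and 1.98 ± 1.17, with GD14.5 replicates 2 and 3, at 1.03 and 0.989, below all virgin libraries.

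**Figure D3:**
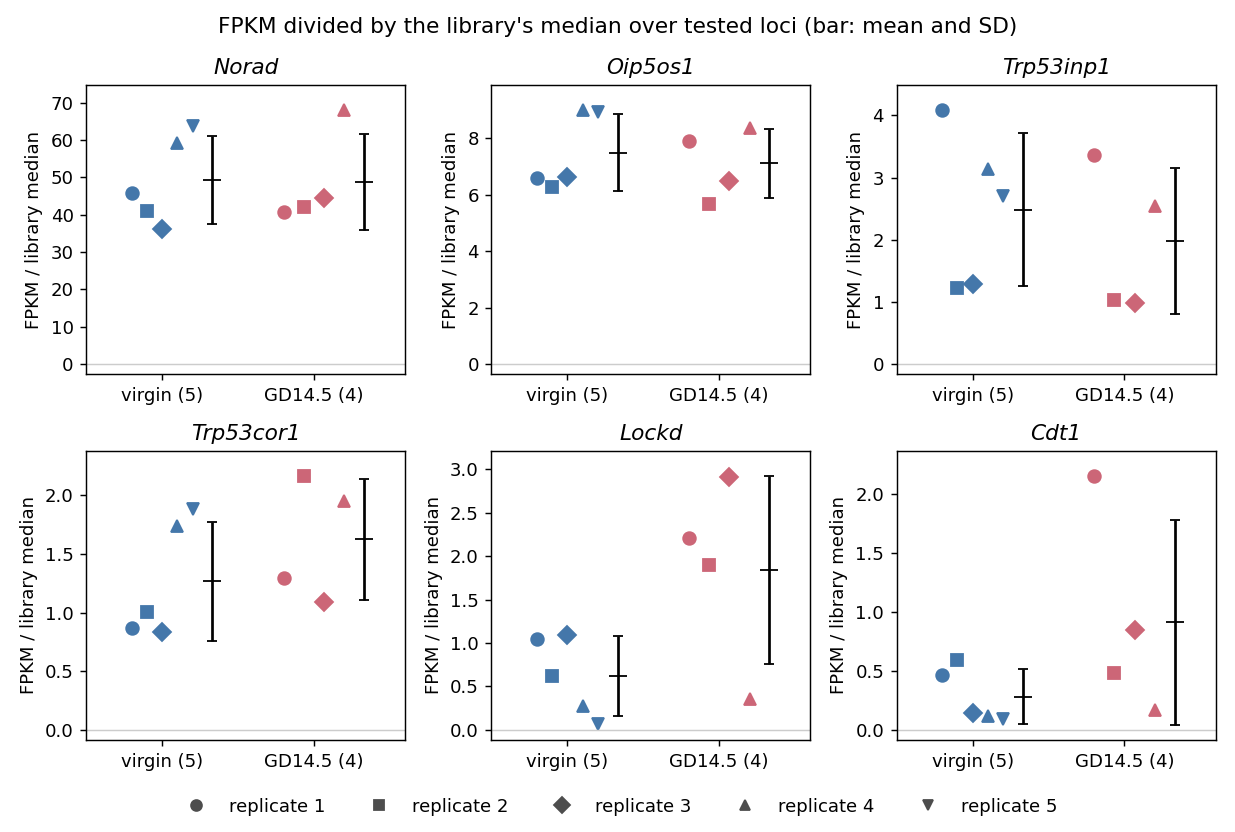
FPKM divided by the library's median FPKM over the tested loci (vertical axes, ratio) for the 5 virgin (blue) and 4 GD14.5 libraries (red), with mean and SD as bars. Norad averages 49.2 in virgin and 48.8 at GD14.5, and Lockd is above all virgin libraries in GD14.5 replicates 1 to 3 and at 0.351 in replicate 4.

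With equal library medians the log2 differences were 1.16 ± 0.56 for Lockd, 0.85 ± 0.48 for Cdt1, 0.24 ± 0.25 for Trp53cor1, −0.10 ± 0.34 for Norad, −0.14 ± 0.25 for Oip5os1 and −0.31 ± 0.39 for Trp53inp1 (SE). Limma again called 0 of 6, with 0.926% of loci called higher and 0.0421% lower, and 0 of 6 had an unadjusted p under 0.05, as against 4.88% of loci higher and 3.66% lower. The lowest adjusted p of the members was that of Lockd, at 0.610.

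Replicate numbers 1 to 4 occur in both groups, so the pairs of equal number can also be compared. The labels do not say that equal numbers pair libraries. The number was used as a block below only after correlations between libraries had been seen in these same values. Lockd was higher at GD14.5 in pairs 1, 2 and 3, by 2.76, 2.14 and 2.61 times, and was at 0.983 times the virgin value in pair 4. Cdt1 was 6.07 and 5.69 times as high in pairs 1 and 3, 1.12 times in pair 4 and 0.575 times in pair 2. Trp53cor1 was 1.96, 1.52 and 1.28 times as high in pairs 1 to 3 and 0.861 times in pair 4. Trp53inp1 was 1.09 times as high in pair 1 and 0.596, 0.754 and 0.621 times in pairs 2, 3 and 4. Norad and Oip5os1 had no common direction, with ratios from 0.723 to 1.20 and from 0.643 to 1.58.

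With the number as a block, the log2 differences were 0.69 ± 0.20 for Lockd (SE; limma adjusted p = 0.217), 0.53 ± 0.26 for Cdt1 (0.614), 0.27 ± 0.19 for Trp53cor1 (0.696) and −0.33 ± 0.20 for Trp53inp1 (0.654). Virgin replicate 5 has no partner, so it adds nothing to a difference fitted with the block. The block differences as deposited are therefore the same as those without virgin replicate 5, and pairing alone did not move them. Norad, at −0.04 ± 0.27, and Oip5os1, at −0.13 ± 0.25, stood near the median of −0.13 over all loci. Limma called 0 of 6 with the block, where 0.968% of loci were called higher and 0.126% lower. Before adjustment it was again Lockd alone that had a p under 0.05, beside 3.49% of loci higher and 5.81% lower. With the block on equal medians it also called 0 of 6, against 0.631% higher and 0% lower, and Lockd had the lowest adjusted p of the 6 (log2 difference 0.80 ± 0.15, SE; limma adjusted p = 0.109). In that fit 4 members had an unadjusted p under 0.05, namely Lockd, Cdt1 and Trp53cor1 above 0 and Trp53inp1 below, as had 7.7% of loci above and 7.4% below. The 95% interval of the Norad difference narrowed there to −0.25 to 0.38, and that of Oip5os1 to −0.36 to 0.32.

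**Figure D4:**
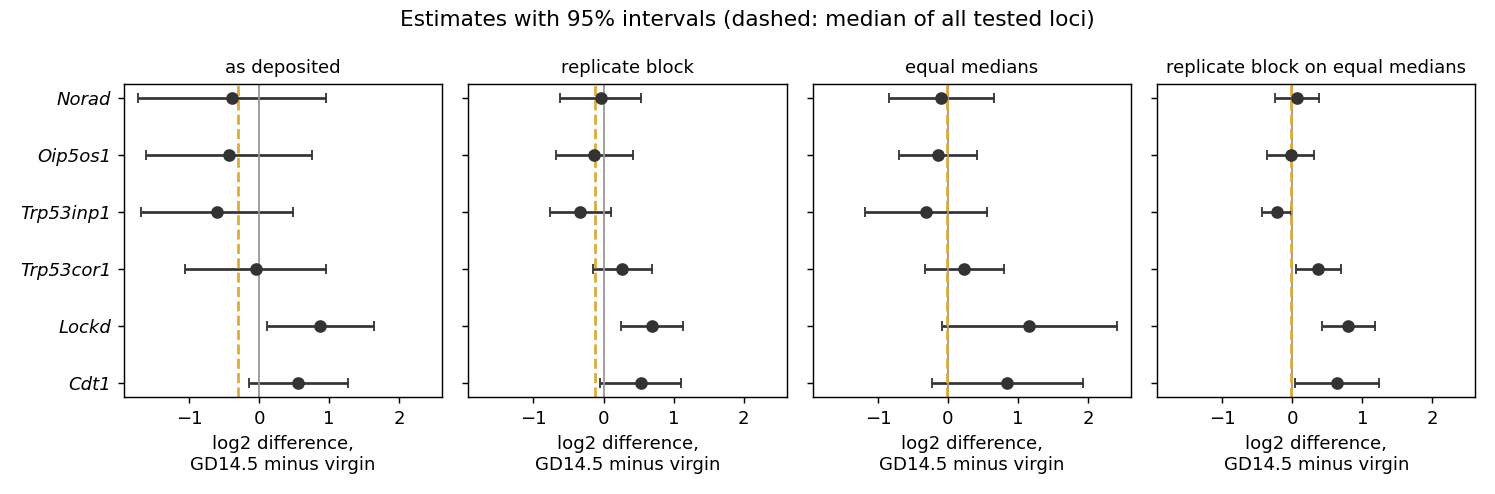
Log2 difference of GD14.5 minus virgin (horizontal axes, log2(FPKM + 0.5) scale) with 95% intervals for each gene in 4 fits, with the median of all tested loci dashed. Lockd, Cdt1 and Trp53cor1 lie to the right of the dashed line in each of the 4, and Trp53inp1 lies to its left in each. Equal medians shift all loci of a library alike, so they cannot change a gene's distance from the dashed line. In none of the fits did any of the 6 genes pass the adjusted threshold.

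Since a locus can hold several deposited transcripts, which carry no identifier, they are numbered here by mean FPKM within a gene. Their shares within a locus do not depend on the scaling of the library. In Norad, transcript 1 held 96.6% to 98.6% of the FPKM, on average 97.3% ± 0.669 in virgin (SD, n = 5), against 98.0% ± 0.646 at GD14.5 (SD, n = 4; exact permutation p = 0.127). Oip5os1 split into transcript 1 with 60.8% to 70.4% and transcript 2 with the rest, at 65.2% ± 4.14 and 63.8% ± 3.08 for transcript 1 (exact permutation p = 0.635). The lowest share of Oip5os1 transcript 1 was in virgin replicate 5 and the highest in virgin replicate 4.

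Lockd had 6 transcripts, and its group difference lay in transcript 1. That transcript was at 0.59, 0.57, 0.79, 0.49 and 0 FPKM in virgin replicates 1 to 5 and at 1.62, 1.52, 2.17 and 0.49 FPKM in GD14.5 replicates 1 to 4. The other 5 transcripts were at or below 0.12 FPKM in all libraries. Transcript 1 was listed at 0 in virgin replicate 5, and in the other libraries it held 74.0% to 93.7% of the FPKM of Lockd. In a fit over 2548 single transcripts it did not pass (log2 difference 0.96 ± 0.37, SE; limma adjusted p = 0.824, and 0.189 with the replicate block). Limma called 0 of the 8 tested transcripts of the 6 genes without and with the block, where 0.118% and 1.1% of transcripts were called higher and 0% and 0.0392% lower.

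Trp53cor1 had 7 transcripts, of which 2 were at 0 in all libraries. Its transcript 1 held 32.4% to 92.6% of the FPKM (virgin 63.0% ± 17.2, SD, n = 5; GD14.5 61.8% ± 25.3, SD, n = 4; exact permutation p = 0.929). The remainder changed between libraries, with transcript 3 at 2.14 FPKM in virgin replicate 5 and at most 0.30 elsewhere, and transcript 4 at 0.99 FPKM in virgin replicate 4 and at 0 elsewhere. Transcripts of one locus share exons, and a quantifier can assign their common reads in different ways, so the sum over the locus is the value compared here.

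**Figure D5:**
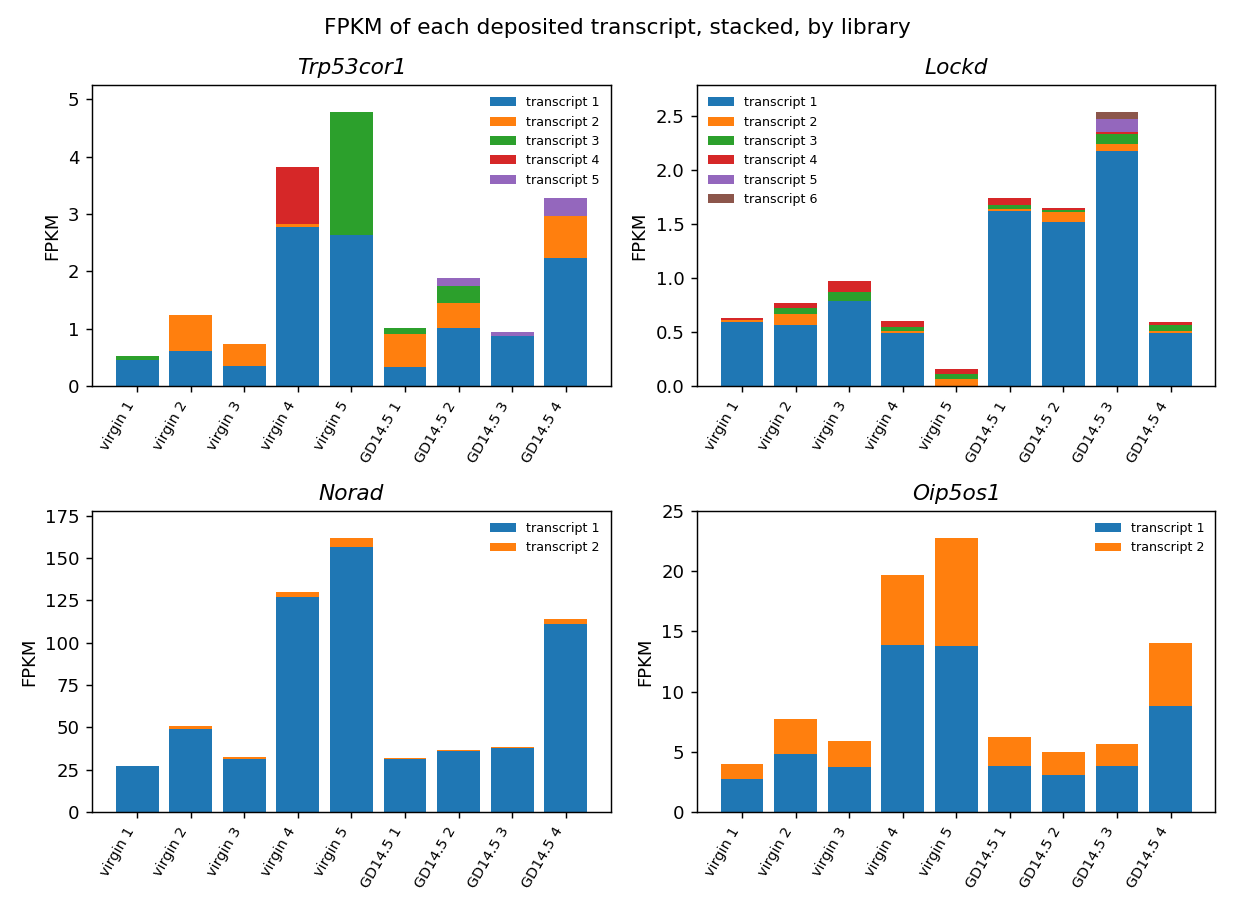
FPKM of each deposited transcript (stacked bars, vertical axes in FPKM from 0) for the 4 genes with more than 1, by library. Norad is almost entirely transcript 1, Lockd lacks transcript 1 in virgin 5, and the minor transcripts of Trp53cor1 differ from library to library.

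The other genes of the members' pathways were read from 6 lists of 180 further genes: p53 pathway, noncoding RNAs linked to p53 or the cell cycle, replication licensing, G1/S regulators, mitosis, and protein partners of Norad and Oip5os1. Of these 34 had a line and 22 could be tested, and limma called 0 of 22 as deposited, where 0.168% of all loci were called higher and 0% lower, so that a count of 0 is near the background. With the replicate block limma also called 0 of 22, beside 0.968% of loci called higher and 0.126% lower. Before adjustment 0 of 22 had a p under 0.05 in either of these fits. Over all loci 1.09% did higher and 1.43% lower as deposited, and 3.49% and 5.81% with the block. With equal medians 2 of 22 did, both higher, against 4.88% of loci higher and 3.66% lower (lowest limma adjusted p = 0.452). With the block on equal medians 2 of 22 did, both higher, against 7.7% of loci higher and 7.4% lower (lowest limma adjusted p = 0.200). The median log2 difference of the 22 as deposited was −0.31, against −0.30 over all loci, and the 22 ran from −0.69 to 0.39. Noncoding RNAs made up 19 of the 22. The p53 pathway was represented by 1 tested gene of 47, Trp53inp2, replication licensing by 1 of 35, Topbp1, and the protein partners by 1 of 9, Pum2. G1/S regulators and mitosis had 3 of 31 and 1 of 28 genes with a line and 0 tested.

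Trp53inp2, a relative of Trp53inp1 with a part in autophagy, was at 77.9 ± 52.9 FPKM in virgin (SD, n = 5), against 53.6 ± 31.3 at GD14.5 (SD, n = 4), with a log2 difference of −0.39 ± 0.63 (SE). Pum2, which encodes a Pumilio protein that Norad binds, had a transcript at 5.54 ± 3.77 and 3.74 ± 2.56 FPKM (log2 difference −0.43 ± 0.52, SE). Topbp1, whose protein acts in origin firing and in the checkpoint kinase response, was at 1.46 ± 1.45 and 0.515 ± 0.431 FPKM (−0.69 ± 0.46, SE), the lowest estimate of the lists.

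Among noncoding RNAs of the lists, the snoRNA host Gas5, which accumulates on growth arrest, was at 50.7 ± 34.7 FPKM in virgin (SD, n = 5), against 52.95 ± 29.0 at GD14.5 (SD, n = 4). Snhg3, a further snoRNA host, was at 62.3 ± 22.1 and 69.4 ± 17.7 FPKM. Lncpint, a p53-induced RNA, was at 24.9 ± 9.79 and 17.9 ± 4.08 FPKM, Tug1, also reported to be induced by p53, at 17.2 ± 13.6 and 11.6 ± 8.38, and Firre at 13.8 ± 10.4 and 8.48 ± 4.56. Xist, which coats the inactive X chromosome and belongs to no arrest pathway, was at 98.9 ± 71.8 and 71.8 ± 46.5 FPKM. Malat1, Neat1 and Meg3, the most abundant of the list, had log2 differences of −0.34 ± 0.54, 0.12 ± 0.63 and −0.30 ± 0.60 (SE).

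Around the members, 39 other RefSeq genes lie within 50 kb, of which 10 had a line and 3 could be tested. Cdkn1a, Cdkn1b, Ccne2, which encodes cyclin E2 and lies 16.1 kb from Trp53inp1, and Oip5, a centromere gene 8.79 kb from Oip5os1, are not analysed here. Beside Lockd, the noncoding 2810454H06Rik was at 1.14 ± 0.888 FPKM in virgin (SD, n = 5), against 0.693 ± 0.521 at GD14.5 (SD, n = 4), with a log2 difference of −0.38 ± 0.40 (SE). Apold1, a gene of endothelial cells, was at 0.602 ± 0.998 and 0.710 ± 0.863 FPKM (0.27 ± 0.46, SE). Next to Trp53inp1, A630034I12Rik was at 0.826 ± 0.639 and 0.468 ± 0.238 FPKM (−0.35 ± 0.36, SE). None of the 3 passed (limma adjusted p = 0.817, 0.825 and 0.817). Gm14170 overlaps Norad on the same strand, at up to 0.25 FPKM, and Gm41556 overlaps Trp53cor1, at up to 0.13 FPKM. How strand was treated in the counting is unknown, so reads of overlapping genes cannot be told apart.

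The pattern over the 9 libraries was compared between loci as log2(FPKM + 0.5) less the library's median, with Pearson's r as a description. All points share the libraries and their scaling, and the 3 libraries of large sum weigh in every r. The loci most like Norad were A730017L22Rik (r = 0.986), Tmem167 (0.985) and Ttc39aos1 (0.984), and those most like Oip5os1 were Gm42247 (0.971), Dleu2 (0.969) and Snhg14 (0.943). For Lockd they were Gm32791 (0.966), Gm40307 (0.966) and 4930577N17Rik (0.964), and for Cdt1 6530402F18Rik (0.951), Ppp1r16b (0.948) and Gm15742 (0.943). The loci named for Lockd and Cdt1 had means of 0.513 to 0.792 FPKM, near the minimum of 0.5 for testing. At such levels log2(FPKM + 0.5) can vary little, so r can reflect the library median that is subtracted. Whether it does, here or for Lockd with Cdt1, was not tested. For Trp53cor1 they were Gsr (0.950), 2210408F21Rik (0.926) and Klhl24 (0.915), and for Trp53inp1 LOC115489130 (0.903), Gm40308 (0.870) and Akap13 (0.861). Between members, r was 0.910 for Norad with Oip5os1 and 0.863 for Lockd with Cdt1 over the 9 libraries. Over the 6 libraries of smaller sum it was −0.06 and 0.52, so the likeness of Norad and Oip5os1 rests on the 3 libraries of large sum. The lowest r over the 9 libraries were −0.847 for Lockd with Norad, −0.832 for Lockd with Oip5os1 and −0.776 for Norad with Cdt1. These were 0.02, 0.04 and 0.15 over the 6, so they too rest on the 3 libraries.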

How the data were processed

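The authors deposited FPKM values rounded to 2 decimals, for 9 libraries, with 26375 transcript lines under 10962 names, and the unit is taken from the name they gave the table. The genome build is GRCm38.p6 per the submitters' processing notes, while no source used here names the aligner, quantifier, annotation or strand setting. Read counts were not reconstructed from the rounded values, and depth is unknown. Of the lines, 480 carried a suffix that marks a copy and were left out, and lines of one name were summed to 10706 loci. Coordinates are those of RefSeq and GENCODE M21 on that assembly, in which Norad and Oip5os1 were found under their RefSeq synonyms.

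Loci with a mean of at least 0.5 FPKM, 2377 in all, were fitted with limma 3.58.1 (R 4.3.3) after the transform log2(FPKM + 0.5) (variance trend, two-sided, Benjamini-Hochberg, threshold 0.05). The fit was checked on simulated data in which each locus varied independently. Shifts shared by many loci, as between these libraries, were not simulated, so the check does not cover them. Single values also had an exact permutation test over all 126 label assignments. The genes named are the 6 members, list genes past the threshold or, where none passed, the 10 most abundant, tested neighbours within 50 kb, and the 3 loci most like each member. Topbp1 and Pum2, each the single tested gene of its list, fall outside this rule and were named after their values were seen. Members and lists were chosen with earlier results of these data known, and the promoter motifs were chosen after those sequences had been seen.

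The deviations of libraries from their group means were correlated over loci, and r between libraries of equal number was 0.49, 0.20, 0.28 and 0.59, all above 0.1, so the number was also fitted as a block. The labels do not say that numbers pair libraries, and some pairs of unequal number were above 0.1 too: virgin 3 with GD14.5 2 at 0.25 and virgin 2 with GD14.5 1 at 0.23, both above the 0.20 of pair 2, virgin 2 with GD14.5 3 at 0.18, virgin 1 with GD14.5 3 at 0.14, and virgin 5, which has no partner, with GD14.5 4 at 0.49. Alternatives covered the pseudocount, the filter, the scaling, the block, the copies, the variance trend and each library left out.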

Additional observations from a re-analysis of the deposited data

Results flagged for a closer look

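Each group of libraries was searched, for the 6 genes and for the share of the most abundant transcript in the 4 genes with several, for a library far from the rest by Dixon's criterion. Of 20 such sets, 2 held one, where chance gives about 1. GD14.5 replicate 4 stood apart at Norad, at 6.84 on the log2(FPKM + 0.5) scale against 5.03 to 5.29 in the other GD14.5 libraries. It is also the GD14.5 library of largest summed FPKM, and after division by the library median Norad was at 68.0 there and at 40.6 to 44.5 in the other 3. At Lockd, virgin replicate 5 stood apart in the share of the most abundant transcript, which was 0% there and 74.0% to 93.7% in the other virgin libraries. The summed level of Lockd in that library was the lowest of the 9, at 0.16 FPKM.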

How the results depend on the processing

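Limma called 0 of the 6 genes, 0 of their transcripts and 0 of the list genes under each alternative that was run for them. Over all loci the calls ran from 3 of 10284 higher and 0 lower without the filter to 25 of 2377 higher and 6 lower with equal totals. Counts of 0 among so few genes are therefore near the background. The fits without virgin 4, virgin 5 and GD14.5 replicate 4 and with the replicate block on equal totals were chosen after the data were seen. Of 130 estimates for single genes, 116 kept their direction, and those of Lockd (0.66 to 1.24), Cdt1 (0.38 to 0.94), Oip5os1 (−0.74 to −0.02) and Trp53inp1 (−0.95 to −0.22) did so in every fit that gave one. For Lockd and Cdt1 the lower and upper ends came from pseudocounts of 1 and 0.1, which are other scales. Some of the 116 were fixed in advance. The filter and the variance trend cannot move an estimate, nor can the copies for genes other than Trp53cor1. The replicate block on the values as deposited repeats the estimates without virgin replicate 5. Cdt1 had no value at a minimum mean of 1 FPKM or without GD14.5 replicate 1, since it then fell below the minimum. Norad turned from −0.38 to 0.0662 with the replicate block on equal medians, to 0.00804 with the block on equal totals and to 0.00638 without the 3 libraries of largest sum. Trp53cor1 turned from −0.05 to 0.24 with equal medians, 0.23 with equal totals, 0.27 with quantile normalization, 0.27 with the replicate block, 0.37 with the block on equal medians, 0.36 with the block on equal totals and 0.42 without the 3 libraries, and leaving out 1 library gave −0.33 to 0.27. The cause of these turns was not tested. The pairing by number changed no call of a gene described here. The median log2 difference over all loci moved from −0.30 as deposited to −0.02 with equal medians, −0.09 with equal totals and −0.13 with the block. Depth is unknown, so the counting error of values under 1 FPKM, as in Cdt1, Lockd and the minor transcripts, cannot be given.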
